A study of Mus musculus with 4 samples.

Results

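Of the 16739 genes with a value in any of 4 RNA-seq libraries of melanoma macrophages, 8 are S100 genes taken from a written list of mouse symbols: S100a1, S100a4, S100a6, S100a8, S100a9, S100a10, S100a11 and S100a13. The symbols were matched to Entrez gene identifiers, and the rule uses no measured value. All 8 had a value in each library, and all 8 passed the filter on low counts. The libraries are of tumor-associated macrophages (TAMs), sorted as CD45+CD11b+F4/80+ cells from subcutaneous B16-F10 melanomas, a transplantable mouse melanoma line, on day 16 by the labels. The mice were of the C57BL/6 strain and were given tumor cells at 6 to 8 weeks of age. There were 2 WT libraries and 2 libraries labelled as Trim24-deficient, from mice whose floxed Trim24 gene was deleted by LysM-Cre, a recombinase expressed in macrophages, monocytes and neutrophils. The study used WT littermates, and whether these carried a floxed or Cre allele, and whether a library is 1 mouse or a pool, was not found in the sources used here. P-values therefore measure only the spread between these libraries. The comparison addresses how gene expression in TAMs differs when myeloid cells lack Trim24, a bromodomain protein that acts on transcription.

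S100 proteins are small EF-hand proteins that mostly form dimers, and most bind calcium and then expose a surface that holds a partner protein. They have no enzyme activity of their own and act by binding, either inside the cell, on annexins, myosin and other cytoskeletal proteins, or outside it, on receptors such as TLR4 and RAGE. In myeloid cells the best known pair is S100A8 and S100A9, which together form calprotectin, are abundant in neutrophils and blood monocytes and are lower in mature tissue macrophages.

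The libraries held 4817292 and 4476122 expected counts (WT replicates 1 and 2) and 4917063 and 5172407 (labelled Trim24-deficient replicates 1 and 2), so that the floor of detection, 3 counts, lay at 0.606 to 0.639 CPM (counts scaled to a common total after TMM). This floor covers counting error only. Trim24 itself, given first as the check of the labels, had 5.82 and 2.12 CPM in WT against 3.43 and 0.411 CPM in the knockout group, so the groups overlapped (log2 fold change -1.06, SE 0.82, adjusted p = 0.635 by edgeR's quasi-likelihood test). Gene-level counts cannot show whether reads came from the floxed part of Trim24, so they check the labels only in part. The knockout libraries are for that reason called the labelled libraries below. Xist was higher in both of those libraries (log2 fold change 5.31, adjusted p = 0.000365) and 4 Y-linked genes were called lower there. The study describes its tumor-bearing mice as matched for sex, and the values of these genes go against that for these libraries. Sex and genotype cannot be told apart in any difference below. The 12 macrophage markers tested summed to between 16829 and 20567 CPM with none at 0 in any library. None of the 12 was called, against 0.372% of all genes tested. The log2 fold change was above 0 for 11 of them, against 49.4% of all genes. In 6 both knockout libraries were above both WT libraries, against 21.5% of all genes. By edgeR 2 had an unadjusted p below 0.05, both higher in the knockout group, against 6.58% of all genes on that side. In bulk samples, fewer cells of a type and less RNA per cell cannot be told apart.

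All 8 genes lie on chromosome 3 (RefSeq positions, build GRCm38.p6). S100a1, S100a13, S100a4, S100a6, S100a8 and S100a9 follow each other within 184688 bases, from chr3:90511034 to chr3:90695721. S100a11 (chr3:93520496-93526288) and S100a10 (chr3:93555117-93564645) lie together 2824774 bases further on. S100a1 on the minus strand and S100a13 on the plus strand start head to head and their spans overlap by 98 bases. S100a8 (chr3:90669071-90670034, plus strand) and S100a9 (chr3:90692630-90695721, minus strand) point toward each other across 22595 bases. Each gene has 3 exons in the GENCODE basic annotation except S100a13, which has 4.

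Levels of different genes are compared here in FPKM, which corrects for transcript length. S100a10 was the most abundant member in each of the 4 libraries, with 481 and 400 FPKM in WT against 441 and 496 FPKM in the labelled libraries. These levels placed S100a10 among the top 1.10% to 1.26% of genes listed in each library. S100a4 followed, at 297, 398, 275 and 227 FPKM in the same order of libraries. The ranges of S100a10 and S100a4 did not overlap, nor did those of S100a4 and S100a6, the next in order. S100a6 was at 167, 203, 224 and 218 FPKM. S100a11 was at 170, 161, 261 and 176 FPKM, and was above S100a6 in 2 of 4 libraries. From S100a6 downward, neighbours in the order of mean FPKM had overlapping ranges.

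In the lower part of the order, S100a1 was at 69.2, 88.5, 62.3 and 98.7 FPKM. S100a13 was the lowest of the members by mean, at 27.4, 33.7, 26.6 and 46.8 FPKM. The order by mean over the 4 libraries was S100a10 (454 ± 43.3 FPKM, SD, n = 4), S100a4 (299 ± 72.1), S100a6 (203 ± 25.6), S100a11 (192 ± 46.3), S100a8 (123 ± 123), S100a1 (79.7 ± 16.9), S100a9 (37.8 ± 31.2) and S100a13 (33.6 ± 9.32). S100a8 and S100a9 stood out by their spread, with 6.62 and 6.16 times more in the highest than in the lowest library, against 1.24 to 1.76 times for the other 6 members.

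**Figure D1:**
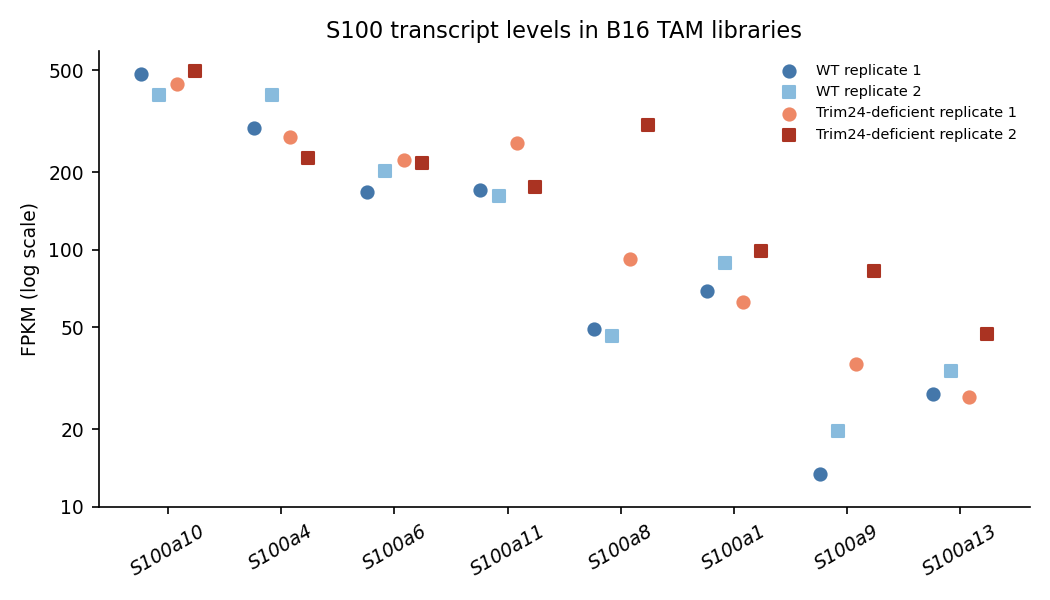
FPKM of the 8 S100 genes on a log axis, one point per library, with WT and labelled Trim24-deficient libraries in different colours. S100a10 is highest in every library, and the points of S100a8 (46.1 to 305 FPKM) and S100a9 (13.4 to 82.5 FPKM) are spread most.

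S100a8 and S100a9, the calprotectin subunits, showed the largest differences of the family. S100a8 had 86 and 75 counts in WT against 165 and 574 in the labelled libraries, which is 17.4, 15.6, 35.1 and 118 CPM. S100a9 was at 33, 45, 90 and 218 counts, which is 6.66, 9.38, 19.2 and 44.8 CPM. For both genes each labelled library was above both WT libraries, and replicate 2 of that group was highest, 3.36 times replicate 1 for S100a8 and 2.34 times for S100a9. Between group means, S100a8 was at 16.5 ± 1.23 CPM in WT and 76.5 ± 58.5 CPM in the other group, and S100a9 at 8.02 ± 1.92 and 32.0 ± 18.1 CPM (SD, n = 2 in each group).

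The fitted differences did not reach the call threshold, which was a fold change above 1.5 and an adjusted p (FDR) below 0.05 over all genes tested. S100a8 had a log2 fold change of 2.21 (SE 0.47, 4.64-fold) with an adjusted p of 0.107 by edgeR's quasi-likelihood test. S100a9 had a log2 fold change of 2.0 (SE 0.41, 3.99-fold) with an adjusted p of 0.0977 by the same test. By size these were the 43rd and 58th largest increases among 11302 genes. An exact two-sided permutation test of either gene gave p = 0.333, the smallest that 2 against 2 libraries allow. The size depended on which of the labelled libraries entered the fit, and the call on whether both of them entered. Without labelled replicate 2, the log2 fold change was 1.09 for S100a8 (adjusted p = 0.0100) and 1.26 for S100a9 (adjusted p = 0.0473). Without labelled replicate 1, the values were 2.84 (adjusted p = 5.04e-10) and 2.49 (adjusted p = 1.38e-06). In these edgeR fits the lone library is assumed to vary like the WT group, and without replicate 2 and without labelled replicate 1 5.54% and 3.46% of genes tested were called. Neither gene was called without WT replicate 1 or without WT replicate 2, where 0.563% and 0.215% of genes tested were called. DESeq2 called S100a9 (log2 fold change 2.02, adjusted p = 0.00349) and not S100a8 (2.24, adjusted p = 0.229). It called 0.977% of the 16692 genes with a rounded count above 0, a total taken before its own filter on low counts.

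The ratio of S100a9 to S100a8 FPKM was 0.273 and 0.426 in the WT libraries and 0.388 and 0.270 in the labelled libraries, so the groups overlapped in the ratio while both levels were apart. Together, S100a8 and S100a9 made up 4.91% and 4.87% of the summed FPKM of the 8 members in the WT libraries. In the labelled libraries they made up 9.04% and 23.5%. By FPKM, S100a8 ranked 1851 and 1953 among the genes of the WT libraries, and 987 and 304 in the labelled libraries. S100a10 kept the largest share in all 4 libraries, at 37.8%, 29.6%, 31.1% and 30.1%, and S100a4 took 23.3%, 29.5%, 19.4% and 13.8%.

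**Figure D2:**
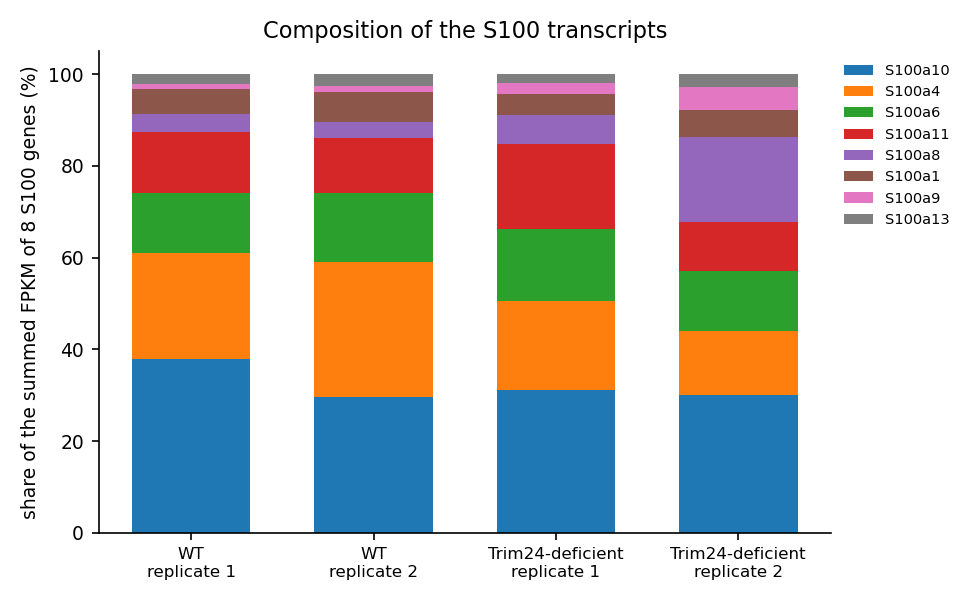
Share (percent) of each S100 gene in the summed FPKM of the 8 members, one bar per library, with colours for genes. S100a8 takes 3.86% and 3.42% in the WT libraries, and 6.51% and 18.5% in the labelled libraries.

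Promoter windows from RefSeq (GRCm38.p6, 250 bases before to 50 after the annotated start) were at hand for 7 of the 8 members. They were searched on both strands for the Stat6 motif (TTC, any 4 bases, GAA), an AP-1 site (TGANTCA), a C/EBP motif (TTNNGNAA) and the TATA box (TATAAA). Matches to different motifs did not overlap. The windows of S100a8 (shown at chr3:90668821-90669100, plus strand), S100a9 (chr3:90695692-90695971, minus strand) and S100a11 (chr3:93520246-93520525, plus strand) are printed because these 3 genes had the lowest unadjusted p of the family. Each runs from 250 bases before to 30 after the start, 5′ to 3′ on the strand of the gene, and capitals mark the motif matches.
S100a8: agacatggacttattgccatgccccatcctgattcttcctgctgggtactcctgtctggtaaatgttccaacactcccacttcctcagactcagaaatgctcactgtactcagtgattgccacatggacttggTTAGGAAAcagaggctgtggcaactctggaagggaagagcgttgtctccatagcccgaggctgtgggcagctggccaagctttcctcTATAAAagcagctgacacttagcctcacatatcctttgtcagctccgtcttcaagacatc
S100a9: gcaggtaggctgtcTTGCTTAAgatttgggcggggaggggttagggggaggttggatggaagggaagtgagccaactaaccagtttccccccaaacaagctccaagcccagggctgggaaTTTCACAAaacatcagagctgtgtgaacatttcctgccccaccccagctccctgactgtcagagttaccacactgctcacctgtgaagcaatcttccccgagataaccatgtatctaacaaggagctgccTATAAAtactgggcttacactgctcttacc
S100a11: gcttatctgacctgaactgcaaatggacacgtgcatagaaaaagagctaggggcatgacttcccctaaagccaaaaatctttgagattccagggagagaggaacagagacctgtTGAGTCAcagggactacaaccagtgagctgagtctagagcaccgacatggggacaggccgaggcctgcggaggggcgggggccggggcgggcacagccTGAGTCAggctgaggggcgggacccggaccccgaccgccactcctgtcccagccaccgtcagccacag

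The S100a8 window held 1 C/EBP match from -117 to -110 and a TATA box from -30 to -25 relative to the start. The S100a9 window held 2 C/EBP matches, from -236 to -229 and from -130 to -123, and TATAAA at 1 to 6, directly after the annotated start. C/EBP factors are transcription factors of the myeloid lineage, and 40.7% of the 32851 windows of this length held such a match. S100a11 held 2 AP-1 sites, from -136 to -130 and from -38 to -32, and no TATA box, against 7.81% of windows with at least 1 AP-1 site. S100a4 was the only other member with a TATA box (-31 to -26), a motif held by 13.6% of windows. The Stat6 motif was in none of the 7 windows and in 6.95% of all windows. A match describes letters in these windows, and no binding was measured here.

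S100A10 and S100A11 are the members best known for binding annexins, S100A10 as the partner of annexin A2 in a complex at the plasma membrane that holds plasminogen. S100a10 counts were 1453 and 1121 in WT and 1359 and 1609 in the labelled libraries, or 293, 234, 289 and 331 CPM. The groups overlapped, with a log2 fold change of 0.23 (SE 0.21, adjusted p = 0.684 by edgeR). S100a11 was at 391, 345, 613 and 435 counts, or 79.0, 71.9, 131 and 89.4 CPM. Here both labelled libraries were above both WT libraries, and unlike S100a8 it was replicate 1 that stood highest. S100a11 had a log2 fold change of 0.54 (SE 0.22, 1.46-fold), an unadjusted p of 0.0341 and an adjusted p of 0.363 by edgeR. Without labelled replicate 2 it had 0.79 with an adjusted p of 0.0135, and without each of the other libraries in turn it was not called.

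S100A4 and S100A6 are cytosolic members linked to cell movement, and S100A4 binds non-muscle myosin IIA. S100a4 was the only member with a log2 fold change below 0. It was at 697 and 868 counts in WT and at 658 and 573 in the labelled libraries, or 141, 181, 140 and 118 CPM. The groups did not overlap, by a margin of about 1 CPM between WT replicate 1 and labelled replicate 1. S100a4 had a log2 fold change of -0.32 (SE 0.21, adjusted p = 0.562 by edgeR). S100a6 was at 560, 633, 767 and 785 counts, or 113, 132, 163 and 161 CPM, with both labelled libraries above both WT libraries and nearly equal to each other (162 ± 1.46 CPM, against 122 ± 13.3 in WT, SD, n = 2). Its log2 fold change was 0.41 (SE 0.19), with an unadjusted p of 0.0547 and an adjusted p of 0.417 by edgeR. The ratio of S100a8 to S100a4 FPKM was 0.165 and 0.116 in WT, 0.336 in labelled replicate 1 and 1.34 in labelled replicate 2, the only library with more S100a8 than S100a4.

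S100A1 is a member best known in muscle, where it acts on calcium handling, and S100A13 takes part in the release of proteins that lack a signal peptide, such as FGF1 and IL-1α. S100a1 was at 197 and 234 counts in WT and 181 and 302 in the labelled libraries, or 39.8, 48.8, 38.6 and 62.1 CPM. S100a13 was at 94, 107, 93 and 172 counts, or 19.0, 22.3, 19.8 and 35.3 CPM. For both neighbours the groups overlapped and labelled replicate 2 alone was above the other 3 libraries. The log2 fold changes were 0.19 for S100a1 (SE 0.26, adjusted p = 0.815 by edgeR) and 0.42 for S100a13 (SE 0.30, adjusted p = 0.601). Without labelled replicate 2 they were -0.20 and -0.06, so their direction rests on that library. The genes overlap and the strand setting of the libraries is not given in the sources used here, so a read from the shared 98 bases could come from either gene. The expected counts of both genes were whole numbers in every library, with no fraction of a read split between them.

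Across the family, edgeR called 0 of 8 members, against 0.372% of the 11302 genes tested. At an unadjusted p below 0.05 there were 3 of 8, all higher in the labelled libraries (S100a8, S100a9 and S100a11), against 12.2% of all genes in either direction and 6.58% in the higher direction. DESeq2 called 1, S100a9. The groups were apart with the labelled libraries higher for 4 members, S100a6, S100a8, S100a9 and S100a11, and lower for 1, S100a4, against 21.5% and 23.0% of all genes. The log2 fold change was above 0 for 7 of 8 members, against 49.4% of all genes, and its median was 0.41, against -0.01. The transcripts of the members are short, at 392 to 732 bases against a median of 2810 for genes tested. Log2 fold change fell with transcript length across genes (Spearman rho -0.249, a correlation across 11302 genes of the same 4 libraries). Of the 341 tested genes in the same length range, 63.0% had a log2 fold change above 0, with a median of 0.11. With the length trend removed from each library, an alternative chosen after these lengths were seen, the median of the members was 0.30, and the log2 fold change was 2.08 for S100a8 (adjusted p = 0.134), 1.86 for S100a9 (0.124) and 0.45 for S100a11 (0.492).

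**Figure D3:**
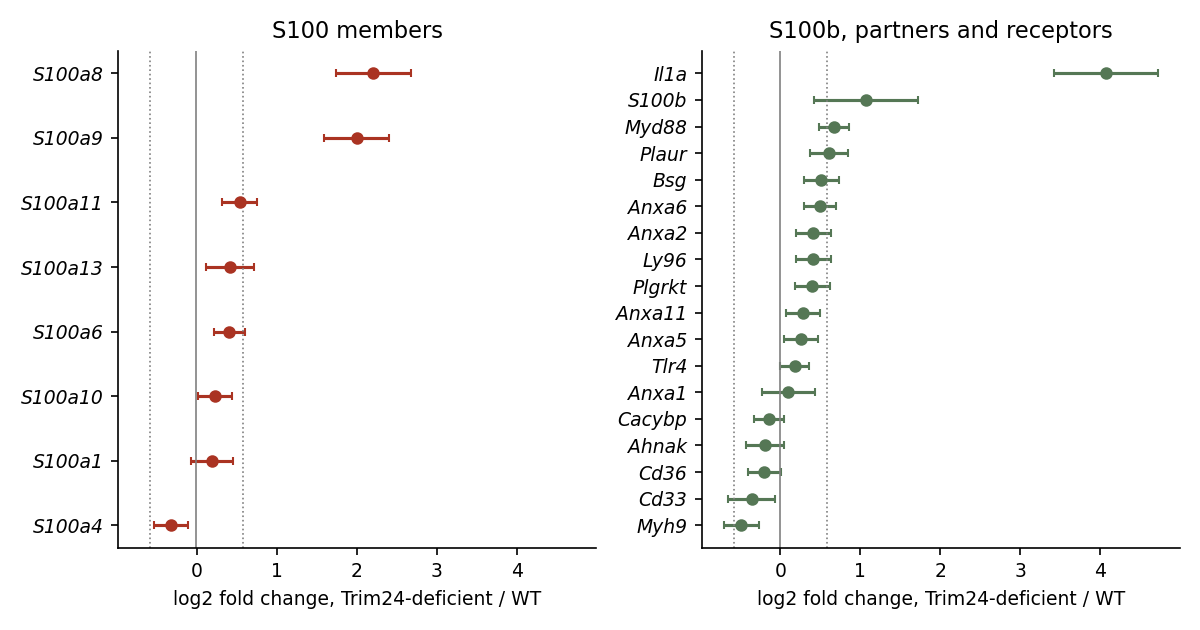
Log2 fold change (labelled Trim24-deficient over WT, edgeR) of the 8 S100 genes (left) and of S100b and the tested partners (right), with bars of 1 SE, a solid line at the median of all genes and dotted lines at 1.5-fold. Among the S100 genes S100a8 (2.21) and S100a9 (2.0) lie farthest to the higher side and S100a4 (-0.32) alone lies below 0.

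**Figure D4:**
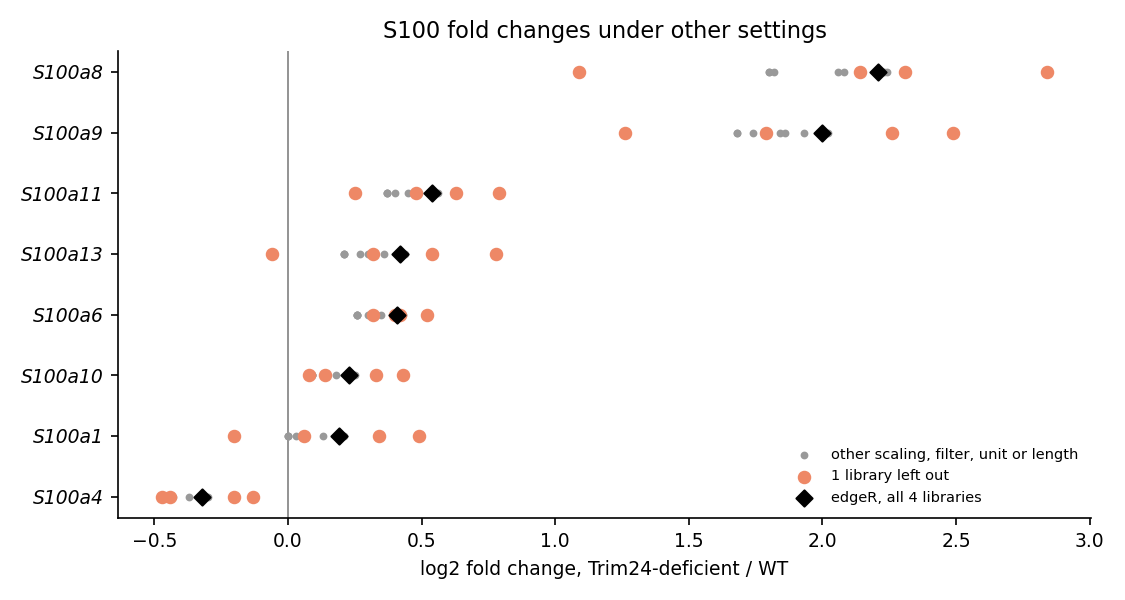
Log2 fold change of each S100 gene (horizontal axis) under the different scalings, tests, filters and left-out libraries, with a diamond for the edgeR fit of all 4 libraries and one point for each other setting, apart from the fit by replicate number. S100a8 stays between 1.09 and 2.84 and S100a9 between 1.26 and 2.49, while S100a1 and S100a13 cross 0 without labelled replicate 2.

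Few other S100 genes were seen in these cells. Of 9 further S100 genes looked for, 4 had a value in any library and only S100b, which encodes the form best known from glia, passed the filter. S100b was at 4 and 9 counts in WT and at 16 and 11 counts in the labelled libraries, or 0.808, 1.88, 3.41 and 2.26 CPM. The groups were apart, but the difference did not pass the test (log2 fold change 1.07, SE 0.65, adjusted p = 0.544 by edgeR). S100a3, S100a16 and S100g had at most 2 counts in any library, which is under the floor of 3 counts. S100a5, S100a7a, S100a7l2, S100a14 and S100z were listed in none of the 4 tables.

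Among 21 receptors, partners and cargo of S100 proteins, 17 were tested and 1 was called, against 0.372% of all genes. Il1a, which encodes a cytokine secreted without a signal peptide and carried with S100A13, was at 5 and 11 counts in WT and at 60 and 210 counts in the labelled libraries (1.01, 2.29, 12.8 and 43.2 CPM). It rose with a log2 fold change of 4.07 (SE 0.65, adjusted p = 0.0371 by edgeR), and as for S100a8, labelled replicate 2 was highest. The call was lost with library totals (adjusted p = 0.0709), upper-quartile factors (0.0519), the length trend removed (0.0564) and the limma fits (0.161 to 0.478). Another 4 partners passed an unadjusted p below 0.05 without being called, all on the higher side, against 6.58% of all genes on that side. Of the receptors for calprotectin, Tlr4 was at 142 and 130 CPM in WT and 162 and 146 CPM in the other group (log2 fold change 0.18, adjusted p = 0.732). Its adaptor Myd88 was at 205, 197, 342 and 298 CPM (log2 fold change 0.67, adjusted p = 0.214). Bsg, another receptor described for S100A9, was at 473, 352, 547 and 629 CPM (0.51, adjusted p = 0.407). Ager, which encodes RAGE, had 7, 5, 1 and 4 counts and was not tested.

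Annexins that S100 proteins bind were among the most abundant of the partners. Anxa2, the partner of S100a10, was at 592, 525, 592 and 746 FPKM, which is 1.23, 1.31, 1.34 and 1.5 times the FPKM of S100a10 in the same libraries. Its log2 fold change was 0.41 (adjusted p = 0.495 by edgeR). Anxa5 was at 455, 453, 451 and 531 FPKM (0.26, adjusted p = 0.650) and Anxa1 at 102, 170, 88.5 and 172 FPKM (0.10, adjusted p = 0.926). Anxa6 (log2 fold change 0.49, adjusted p = 0.372) and Plaur, the urokinase receptor of the plasminogen system (132, 105, 144 and 216 CPM, 0.61, adjusted p = 0.350), passed only the unadjusted threshold. Myh9, which encodes the myosin heavy chain bound by S100A4, was at 131, 186, 123 and 103 CPM (-0.49, adjusted p = 0.413 by edgeR). It was the only tested partner with both labelled libraries below both WT libraries, against 23.0% of all genes. Over the 17 partners tested, 11 had both labelled libraries above both WT libraries, against 21.5% of all genes. The log2 fold change was above 0 for 12, against 49.4% of all genes, and the median was 0.28, against -0.01.

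Because S100a8 and S100a9 are abundant in neutrophils and monocytes, marker lists of these cells are given beside them. Of 16 neutrophil markers, 13 were listed in the tables and 6 were tested, with 0 called and 4 at an unadjusted p below 0.05, all higher in the labelled libraries, against 0.372% of all genes called and 6.58% at that p on the higher side. Their summed level was 180 and 219 CPM in WT and 268 and 350 CPM in the other group, in the same order of libraries as S100a9, with 4, 8, 5 and 3 of the 16 at 0. Of the 13 listed, 10 were highest in labelled replicate 2, 2 in labelled replicate 1 and 1 in WT replicate 2. The granule genes Camp (1, 0, 0 and 1 counts) and Ngp (3, 0, 0 and 3), counted among the 10, were at or under the floor of 3 counts in every library. Their counts were equal in WT replicate 1 and labelled replicate 2. Elane and Mpo were listed in no table. Ly6g, the marker that defines mouse neutrophils, was at 0 in both WT libraries and at 9.41 and 4.47 expected counts in the others. It was not tested, and its counts are not whole numbers, so some reads may have been shared with another gene. Lcn2, which encodes a granule protein that macrophages can also make, was at 5, 4, 18 and 87 counts (log2 fold change 3.52, SE 0.78, adjusted p = 0.123 by edgeR). Csf3r was at 87.1, 97.0, 170 and 157 CPM (0.83, adjusted p = 0.120 by edgeR). Mmp8 (log2 fold change 1.21, adjusted p = 0.322 by edgeR) and Padi4 (0.98, adjusted p = 0.157) were both highest in labelled replicate 2. So were Retnlg (9, 0, 9 and 55 counts), Mrgpra2b (1, 0, 8 and 18.8) and Wfdc21 (1, 1, 1 and 7), which were not tested. In contrast, Cxcr2, at 63.5, 83.9, 42.9 and 76.9 CPM, and Mmp9, at 3.23, 6.67, 2.77 and 9.86 CPM, overlapped between groups. Csf3r and Cxcr2 together made up most of the summed level in each library, also in WT, where Ly6g was at 0.

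The 9 monocyte markers summed to 1091 and 1216 CPM in WT and to 2111 and 2408 CPM in the labelled libraries, with none at 0. All 8 tested had a log2 fold change above 0, against 49.4% of all genes, with a median of 1.19. By edgeR, 6 of the 8 had an unadjusted p below 0.05, against 6.58% of all genes on the higher side. Called were 2, both higher in the labelled libraries, against 0.372% of all genes. Among these, Hp, which encodes haptoglobin, was at 6.87, 7.71, 22.6 and 31.2 CPM (log2 fold change 1.88, adjusted p = 0.0368 by edgeR). The call of Hp was lost without WT replicate 1 (adjusted p = 0.0827), without WT replicate 2 (0.121), with library totals (0.0737), with upper-quartile factors (0.0519) and in the 3 limma fits (0.0782 to 0.336). Ly6c2 was at 190, 176, 616 and 295 CPM and Plac8 at 130, 98.3, 483 and 259 CPM, neither called (adjusted p = 0.152 and 0.0625 by edgeR). Of the 9 markers, 5 were highest in labelled replicate 1, Ly6c2 and Plac8 among them, and 4 in labelled replicate 2, where S100a8 and S100a9 were highest. The summed melanoma markers were 813, 773, 611 and 804 CPM, and those of T and NK cells 75.1, 46.7, 178 and 58.0 CPM, with 0 called in either list. Of the 7 melanoma markers, Tyr, at 411, 424, 375 and 496 CPM, made up most of the sum, and 6 had a log2 fold change below 0, with a median of -0.46. In 4 of the 7 both labelled libraries were below both WT libraries, against 23.0% of all genes, and Tyrp1 had an unadjusted p of 0.0165 (146, 128, 70.1 and 104 CPM, log2 fold change -0.65, adjusted p = 0.281 by edgeR). Dendritic cell markers summed to 48.6, 48.7, 79.1 and 36.9 CPM and B cell markers to 46.3 to 55.4 CPM, again with 0 called. Eosinophil and mast cell, fibroblast and keratinocyte markers each summed to at most 5.96 CPM in any library and endothelial markers to 17.7 to 42.0 CPM. The part of these other cells in the S100 values was not tested.

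**Figure D5:**
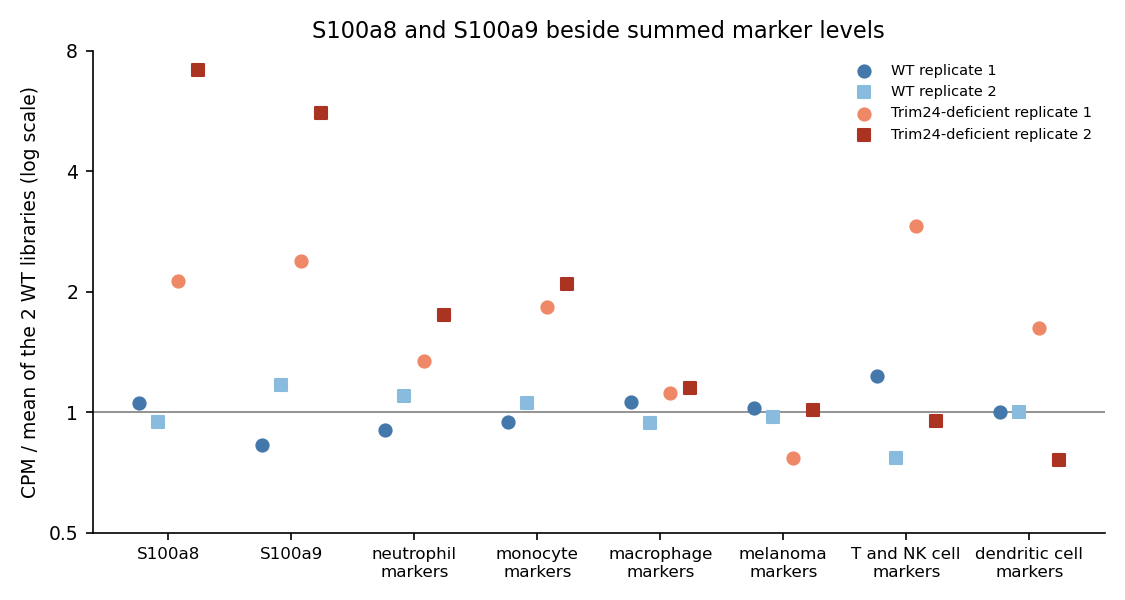
CPM of S100a8 and S100a9 and summed CPM of 6 marker lists, each divided by the mean of the 2 WT libraries (log axis), with one point per library and a line at 1. Neutrophil markers sum to 180 to 350 CPM and monocyte markers to 1091 to 2408 CPM, and both are higher in the labelled libraries. Csf3r and Cxcr2 make up most of the neutrophil sum.

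Among 9202 genes whose mean log2 CPM reached 3, the 5 whose pattern over the 4 libraries was most like that of S100a8 were found by the root mean square difference of centred log2 CPM. The nearest was S100a9, at a difference of 0.29. The others were Il1b, the cytokine IL-1β, at 0.36 (28.7, 33.8, 106 and 189 CPM), Hdc, the histamine-forming enzyme, at 0.37 (4.24, 7.29, 17.5 and 49.7 CPM), Cxcl3, a chemokine that attracts neutrophils, at 0.38 (4.80, 4.24, 8.72 and 17.6 CPM), and Thbs1, the matrix protein thrombospondin 1, at 0.39 (36.1, 20.8, 59.0 and 118 CPM). All 5 were highest in labelled replicate 2 and had labelled replicate 1 above both WT libraries, which follows largely from how they were picked. The measure rests on 4 libraries of the same sort and is a description with no test.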

How the data were processed

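The data are RNA-seq of 4 libraries of sorted TAMs, 2 WT and 2 labelled Trim24-deficient, grouped by their genotype labels. Bowtie alignments to GRCm38/mm10 were quantified per gene by the authors with RSEM. The deposited tables hold an expected count that is not normalized (about 77% are whole numbers), an FPKM value that corrects for transcript length and library total, and the transcript length itself. Genes at 0 are left out of a table and were set to 0. Of 16739 genes, 16698 matched a symbol by Entrez identifier.

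Expected counts were rounded. In R 4.3.3, edgeR 4.0.16 filtered low genes (filterByExpr, 11302 kept), applied TMM factors and compared the groups by its quasi-likelihood test and Benjamini-Hochberg adjustment over all genes. A call needed more than a 1.5-fold change with FDR under 0.05, the thresholds of the study. SE is the log2 fold change divided by the square root of F. Library totals of 4476122 to 5172407 put 3 counts at 0.606 to 0.639 CPM after TMM. The members, partner list and marker lists, and the rule naming all members, the partners past the unadjusted threshold or among the 5 highest and the 5 genes most like S100a8, were chosen with earlier results of these data known. Tlr4, Ager and Myh9 of the partner list and single markers are named beyond that rule, after their values were seen. The TATA box and the length correction were also added after the data were seen. Alternatives were DESeq2 1.42.0, limma 3.58.1 on log2 FPKM with a pseudocount of 1 or 0.1, other scalings and filters, a replicate block and each library left out in turn. The scripts were tested on simulated data. The values of 1 further called marker are not reported here.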

Additional observations from a re-analysis of the deposited data

How the results depend on the processing

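Over the 14 alternatives per gene, the S100 genes changed direction in 2 cases: without labelled Trim24-deficient replicate 2, S100a1 was at -0.20 and S100a13 at -0.06. In the 3 limma fits S100a1 was at 0.00, with no direction. Their ranges over left-out libraries were -0.20 to 0.49 and -0.06 to 0.78. The median log2 fold change of the 8 members stayed between 0.24 and 0.50. Library totals without TMM moved the median of all genes from -0.01 to -0.15 and that of the members to 0.26. S100a8, not called in the main test, ranged from 1.09 to 2.84 when 1 library was left out, and its adjusted p over the alternatives other than the replicate block from 5.04e-10, without labelled replicate 1, to 0.491. S100a9 ranged from 1.26 to 2.49 (adjusted p from 1.38e-06 to 0.491), with DESeq2 at 2.02, and S100a11 from 0.25 to 0.79 (adjusted p from 0.0135 to 0.999). S100a8 and S100a9 were called when either labelled library was left out and not called when either WT library was left out.

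Against 42 genes called by edgeR, DESeq2 called 163, limma 23 with a pseudocount of 1 and 20 with 0.1, and limma without a filter 0 (1636 at an unadjusted p below 0.05). At an unadjusted p below 0.05 edgeR gave 1379 genes, and leaving out 1 library gave 25 to 652 called. Of the 8 S100 genes, against 0 called, DESeq2 called 1, the unadjusted threshold passed 3 and leaving out 1 library gave 0 to 3. Of the partner, marker and other S100 genes, against 3 called, DESeq2 called 8, library totals and upper-quartile factors 1 each, the 3 limma fits 0 (17 to 19 at an unadjusted p below 0.05), the unadjusted threshold 21 and leaving out 1 library 2 to 19. The cause was not tested.

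The labels number the libraries 1 and 2 in both groups, with no sign that a number pairs mice, and deviations of same-numbered libraries correlated at 0.165. With the replicate block 634 genes, or 5.61% of those tested, were called (425 higher, 209 lower), with 2 S100 genes among them, S100a8 at 2.0 (adjusted p = 3.73e-13) and S100a9 at 1.92 (2.10e-08), and 17 of the partner, marker and other S100 genes. In that fit edgeR's prior degrees of freedom were infinite, against 7.41 without the block, so each gene took the fitted spread in place of its own.

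With 2 libraries per group, a permutation test cannot go below p = 0.333, whatever the size of the difference. At under 3 counts per library, S100a3, S100a16 and S100g are not measurable.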
